A study of Mus musculus with 8 samples.

Results

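Of the guanylate-binding protein (Gbp) genes of the mouse, 10 were followed across 4 groups of spleen B cells, and any others of the family were not. The 10 members were Gbp2b, Gbp3, Gbp5 and Gbp7 on chromosome 3, and Gbp4, Gbp6, Gbp8, Gbp9, Gbp10 and Gbp11 on chromosome 5. They were selected by gene name, as the probe sets whose only symbol in the platform's annotation is one of these names, and they make up 10 of the 21515 genes with such a probe set. Each gene had 1 probe set. The family was taken up with the values of these same 8 arrays already known, so its counts and adjusted p-values describe these arrays and are no independent evidence about the family. The symbols and chromosomes were checked against RefSeq's gene table for GRCm38.p6, which lists Gbp11 as a transcribed pseudogene and the other members as protein-coding.

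The study measured 4 groups with 2 Affymetrix whole-transcript arrays each. LMP1 cells (LMP1flSTOP/YFPflSTOP) carried alleles for LMP1, the latent membrane protein of Epstein-Barr virus that signals without a ligand, and for a yellow fluorescent reporter, each behind a removable stop cassette. YFP control cells (YFPflSTOP/+) carried the reporter allele alone. Both came from female (C57BL6XBALBc) F1 mice, were depleted of cells bearing CD43, were treated with TAT-Cre, a Cre recombinase that enters cells, and sorted as YFP+ 2 days later, so that cells in both arms had undergone recombination and sorting. Their arrays were taken from an earlier series. CD40-activated cells were CD43-depleted spleen B cells from male B6/J mice kept with an antibody to CD40 for 2 days. Naive control cells came from the same kind of mice and went into RNA preparation without culture. LMP1 cells and CD40-activated cells therefore differ also in strain, sex, TAT-Cre, sorting and the series of their arrays, as do the 2 controls, and CD40-activated cells differ from their control also in having been cultured.

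Guanylate-binding proteins are large GTPases of the dynamin superfamily. In mouse cells their genes are induced above all by interferon gamma, and the proteins gather on the vacuoles and membranes of intracellular bacteria and parasites, where they help to break the membrane and to start inflammasome signalling. Several of them are anchored to membranes by a lipid added to the carboxy terminus, and their loading onto vacuoles depends on the ATG8 conjugation machinery of autophagy. The genes lie in a cluster on chromosome 3, whose loss makes mice susceptible to the parasite Toxoplasma gondii, and in a second cluster on chromosome 5. In B cells, CD40 and LMP1 share many adaptors that lead to NF-kB, and the comparison of their effects was the purpose of the series.

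The promoters of the chromosome 3 members, the only members with promoter windows at hand, are shown because these 4 genes were all higher in LMP1 cells than in YFP control cells. The sequences are RefSeq promoter windows of GRCm38.p6 on the plus strand, printed 5′ to 3′. The print stops at the start of the gene in RefSeq's gene table, which for Gbp5 and Gbp7 is the start site of the window, while for Gbp3 and Gbp2b it lies upstream of it, so that 222 and 219 of the 250 bases before the site are printed. Capitals mark matches to the core of an interferon-stimulated response element (GAAANNGAA), to which IRF factors bind, and to a gamma-activated sequence (TTCNNNGAA), on either strand.
Gbp2b, chr3:142594597-142594815: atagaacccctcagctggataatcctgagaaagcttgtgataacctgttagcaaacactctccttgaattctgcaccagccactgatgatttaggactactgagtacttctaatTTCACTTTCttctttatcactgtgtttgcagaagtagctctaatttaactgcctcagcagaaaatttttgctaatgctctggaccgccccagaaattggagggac
Gbp3, chr3:142559794-142560015: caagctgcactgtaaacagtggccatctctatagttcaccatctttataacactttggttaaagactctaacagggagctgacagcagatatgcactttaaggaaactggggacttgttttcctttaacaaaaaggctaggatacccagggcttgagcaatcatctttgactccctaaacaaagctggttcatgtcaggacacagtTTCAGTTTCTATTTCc
Gbp5, chr3:142496684-142496933: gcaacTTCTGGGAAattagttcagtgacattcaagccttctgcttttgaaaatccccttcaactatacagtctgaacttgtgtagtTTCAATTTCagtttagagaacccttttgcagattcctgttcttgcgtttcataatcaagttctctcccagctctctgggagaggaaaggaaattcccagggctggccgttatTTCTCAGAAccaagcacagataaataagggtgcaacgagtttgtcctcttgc
Gbp7, chr3:142530086-142530335: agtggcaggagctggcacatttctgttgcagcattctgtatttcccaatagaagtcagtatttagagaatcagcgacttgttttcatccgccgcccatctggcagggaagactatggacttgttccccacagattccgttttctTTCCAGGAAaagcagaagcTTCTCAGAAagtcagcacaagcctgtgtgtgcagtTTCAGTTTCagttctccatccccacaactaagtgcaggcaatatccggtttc

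Each of these windows held the response element core. In Gbp3 a pair of overlapping matches lay from base -44 to base -30, counted from the start site of the window and not from the end of the print, and in Gbp7 the match lay from -52 to -44. In Gbp5 it lay from -164 to -156, and in Gbp2b from -136 to -128. Gamma-activated sequences were present in Gbp5 at -245 to -237 and -52 to -44, and in Gbp7 at -106 to -98 and -87 to -79, with no match to these letters in the windows of Gbp3 and Gbp2b. The Gbp5 window also held 1 match to the NF-kB motif, from -77 to -68. Gbp3 has a second annotated window, in which none of the 3 motifs matched. Among 32851 mouse promoter windows of the same length, 8.56% held the response element core, 8.30% the gamma-activated sequence and 8.46% the NF-kB motif. A match is a description of the letters and not evidence of binding. No promoter windows of the chromosome 5 members were at hand, so these were not searched and the clusters were not compared.

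The 2 arrays of a group had correlations across genes of 0.9748 (YFP control) to 0.9957 (LMP1). The arrays of a group differed by more than 1 log2 unit at 14 genes for LMP1, against 950 for YFP control, and at 34 genes for CD40-activated, against 364 for naive control. Array medians over genes lay between 5.59 and 5.75 log2 units. The 7 measured B cell genes, none of them below the array median on any array, averaged 10.5 on both LMP1 arrays and 11.2 to 11.7 on the other 6. The mean over 6 T cell genes was 5.37 to 6.30 on the LMP1, YFP control and CD40-activated arrays, against 8.88 and 8.74 on the naive control arrays. The mean over 8 NK cell genes was 4.62 to 5.04 on those 6 arrays, against 6.82 and 6.44 on the naive control arrays. In these bulk samples, fewer cells of a type and less RNA per cell cannot be told apart.

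The plot of all values by array gives the levels described in the following paragraphs. All levels are log2 expression values from RMA, a robust average over a gene's probes, and a level is compared only with other levels of the same probe set.

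**Figure D1:**
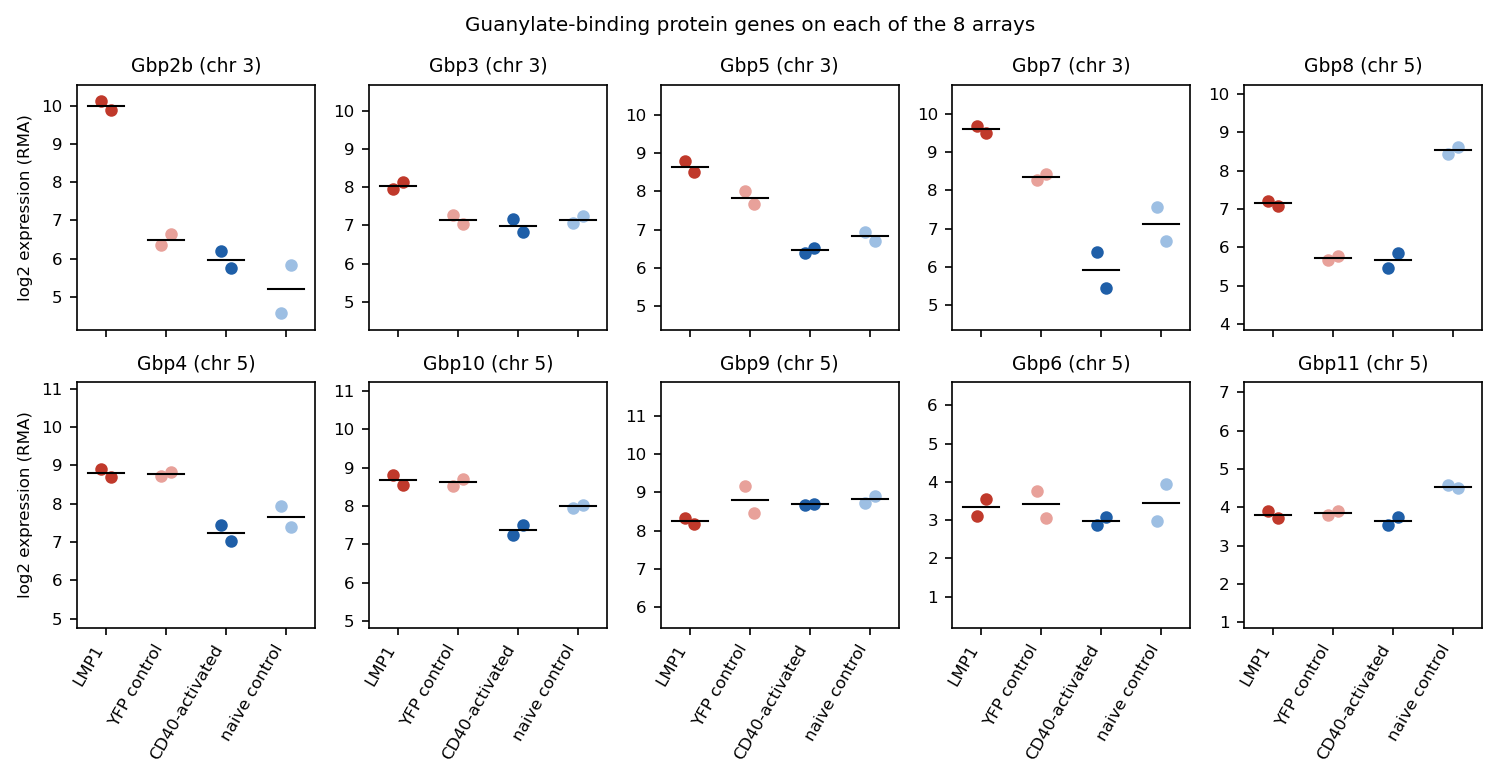
Log2 expression of the 10 guanylate-binding protein genes on each of the 8 arrays, in 1 panel per gene, with points for single arrays and a line for the mean of the 2 arrays. Every vertical axis spans the same number of log2 units, so that distances can be compared between panels. Gbp2b, Gbp3, Gbp5 and Gbp7 are highest on both LMP1 arrays, and Gbp8 and Gbp11 are highest on both naive control arrays.

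The first comparison asked what LMP1 adds to cells of the same strain, sex, recombinase treatment and sort. Of the 10 members, 5 rose and 0 fell (1 fell at an unadjusted p under 0.05 in limma, Gbp9): all 4 chromosome 3 members and, of the 6 on chromosome 5, Gbp8. Over all genes tested, 14.9% rose and 8.31% fell at the same threshold, an adjusted p under 0.05 in limma with Benjamini-Hochberg adjustment over all 21515 genes. The median log2 change was 0.44 over the family, 1.07 over the chromosome 3 members and -0.01 over the chromosome 5 members, and it was -0.08 over all genes. Of the marker genes, 5 of 7 for B cells, 2 of 6 for T cells, 2 of 11 for monocytes and macrophages and 0 of 8 for NK cells (2 at an unadjusted p under 0.05 in limma) fell in the same comparison, and 2 of 7 for dendritic cells rose. Their part in the members' values was not tested.

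Gbp2b (probe set 17403255) encodes the protein long known in mouse as Gbp1, one of the lipid-anchored members that coat Toxoplasma vacuoles. Its level was 10.11 and 9.88 on the LMP1 arrays, against 6.35 and 6.64 on the YFP control arrays. It was 6.20 and 5.75 on the CD40-activated arrays, against 4.59 and 5.85 on the naive control arrays. Both LMP1 arrays lay more than 3 log2 units above every other array, while CD40-activated and naive control overlapped. The LMP1 change was 3.50 ± 0.35 log2 (SE of the model, n = 2 arrays a group), which is 11.3-fold, with an adjusted p of 1.05e-04 in limma. This was the largest change of any member in this comparison, and the 15 alternative settings gave 3.29 to 3.65 with the call kept in each.

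Gbp8 (probe set 17450434), a chromosome 5 member, rose as well and had its own order of groups. It was at 7.22 and 7.09 in LMP1 cells, against 5.66 and 5.78 in YFP control cells. In CD40-activated cells it was at 5.47 and 5.84, against 8.43 and 8.63 in naive control cells. The naive control was thus the highest group, LMP1 lay between, and YFP control and CD40-activated overlapped at the bottom. The LMP1 change was 1.44 ± 0.18 log2, or 2.70-fold (limma, adjusted p = 4.10e-04), and it kept its call in all 15 alternatives, between 1.33 and 1.51.

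Gbp7 (probe set 17403224), which in mouse macrophages supports the delivery of antimicrobial machinery to bacterial vacuoles, had 9.69 and 9.51 on the LMP1 arrays, against 8.27 and 8.44 on the YFP control arrays. Its CD40-activated values were 6.39 and 5.44, against 7.57 and 6.69 in naive control. The 4 groups did not overlap, in the order LMP1, YFP control, naive control, CD40-activated. Its LMP1 change was 1.25 ± 0.33 log2, or 2.37-fold (limma, adjusted p = 0.0226). The call was lost without any 1 of the 4 LMP1 and YFP control arrays, with changes of 1.16 to 1.34 and adjusted p-values of 0.0676 to 0.136.

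Gbp3 and Gbp5 changed by similar amounts. Gbp3 (probe set 17403237) had 7.94 and 8.13 in LMP1 cells, against 7.26 and 7.03 in YFP control cells. It had 7.16 and 6.83 in CD40-activated cells, against 7.06 and 7.25 in naive control cells. Only LMP1 stood apart for Gbp3, since the other 3 groups overlapped, and its change was 0.89 ± 0.19 log2, or 1.85-fold (limma, adjusted p = 0.00658).

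Gbp5 (probe set 17403205), a member linked to activation of the NLRP3 inflammasome, had 8.79 and 8.50 in LMP1 cells, against 8.0 and 7.66 in YFP control cells. Its values were 6.39 and 6.53 in CD40-activated cells, against 6.94 and 6.71 in naive control cells. Its groups did not overlap and followed the same order as those of Gbp7. The change with LMP1 was 0.82 ± 0.19 log2, or 1.76-fold (limma, adjusted p = 0.0119). The adjusted p passed the threshold no longer for Gbp5 without the second YFP control array (0.0503) or the first LMP1 array (0.137), nor for Gbp3 without the second LMP1 array (0.0771). With quantile normalization of the LMP1 and YFP control arrays on their own, Gbp3, Gbp5 and Gbp7 kept positive changes of 0.56, 0.48 and 0.96 but missed the threshold (limma, adjusted p = 0.0596, 0.0632 and 0.0690).

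Gbp4 and Gbp10, neighbours on chromosome 5, did not pass the test between LMP1 and YFP control. Gbp4 (probe set 17450461), whose protein restrains the transcription factor IRF7 in mouse cells, had 8.91 and 8.69 in LMP1 cells, against 8.73 and 8.83 in YFP control cells. Gbp10 (probe set 17450501) had 8.82 and 8.55, against 8.53 and 8.71. The groups overlapped for both genes. The changes were 0.02 (95% interval -0.48 to 0.52) for Gbp4 and 0.07 (-0.34 to 0.47) for Gbp10. Both intervals end below the 0.89 of Gbp3, whose own interval was 0.47 to 1.31. The members were not tested against each other.

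Gbp9 (probe set 17450448) was the one member below its control on both LMP1 arrays, at 8.33 and 8.18 against 9.16 and 8.45 in YFP control cells. Its change of -0.55 ± 0.23 log2 missed the threshold (limma, adjusted p = 0.118). It passed without the second YFP control array, at -0.91 (adjusted p = 0.00630), and with quantile normalization of these 4 arrays on their own, at -0.88 (adjusted p = 0.00921). Gbp6 (probe set 17450477) and Gbp11 (probe set 17450515) lay below the array's lower quartile on all 8 arrays. Gbp6 had 3.11 and 3.56 in LMP1 cells, against 3.77 and 3.05 in YFP control cells, and Gbp11 had 3.89 and 3.72, against 3.79 and 3.90. The arrays overlapped for both, and the differences of -0.08 and -0.04 log2 did not pass the test.

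CD40-activated cells were set against naive control cells, which had neither the antibody to CD40 nor the 2 days of culture. The antibody and the culture cannot be told apart in this comparison. In limma 0 of the 10 members rose, also at an unadjusted p under 0.05, and 4 fell, Gbp8, Gbp7, Gbp11 and Gbp10, while 11% of all genes rose and 6.65% fell. The median log2 change was -0.45 over the family and -0.05 over all genes. Subtracting each array's median moved the median of all genes by 0.11, to 0.06. Relative to it, Gbp8 at -2.77 and Gbp11 at -0.79 still passed, while Gbp7 at -1.11 and Gbp10 at -0.52 did not (limma, adjusted p = 0.0516 and 0.0844).

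Gbp8 fell by 2.88 ± 0.18 log2 (n = 2 arrays a group), to levels 7.34-fold lower in CD40-activated cells than in naive control cells (limma, adjusted p = 2.56e-05). It passed under all 15 alternatives. In the same comparison all 6 measured T cell genes fell (Cd2, Cd3d, Cd3e, Cd3g, Cd4 and Cd8a), with a median of -2.83 log2, and 6 of 8 NK cell genes fell, with a median of -1.95 log2. Of other markers, 1 of 7 for B cells, 1 of 11 for monocytes and macrophages and 1 of 7 for dendritic cells rose. Of these 3 lists 1, 4 and 2 genes fell, as did 2 of 9 for neutrophils and 1 of 3 for red cells and platelets. The last, Slc4a1 of red cells, chosen here after its values were seen, had 5.27 and 5.47 in CD40-activated cells, against 11.15 and 9.39 in naive control cells. The part of these cells in the Gbp8 value was not tested.

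Gbp7 fell by 1.22 ± 0.33 log2, or 2.32-fold (limma, adjusted p = 0.0327), with the T and NK cell genes lower in the same arrays. Without the first naive control array its change was -0.78 (adjusted p = 0.187), and without the second CD40-activated array it was -0.74 (adjusted p = 0.267). Gbp11 had 3.54 and 3.75 in CD40-activated cells, against 4.58 and 4.50 in naive control cells, a change of -0.90 ± 0.17 (limma, adjusted p = 0.00505) at levels below the lower quartile of every array. Gbp10 had 7.23 and 7.50, against 7.95 and 8.03, a change of -0.63 ± 0.18 (limma, adjusted p = 0.0392) that passed in 7 of 15 alternatives.

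The chromosome 3 gene with the largest LMP1 change, Gbp2b, did not pass in CD40-activated cells, with a change of 0.76 ± 0.35 log2 (limma, adjusted p = 0.179). The 2 naive control arrays were 1.26 log2 units apart for this gene. Without the second of them the change was 1.39 (adjusted p = 0.0121). The changes of Gbp5 (-0.37), Gbp4 (-0.43), Gbp3 (-0.16), Gbp9 (-0.14) and Gbp6 (-0.48) did not pass either. Gbp4 had 7.44 and 7.02 in CD40-activated cells, against 7.93 and 7.38 in naive control cells, with overlap. Gbp9 stayed between 8.67 and 8.91 on all 4 arrays. Gbp6 had 2.86 and 3.08 in CD40-activated cells, against 2.97 and 3.93 in naive control cells.

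**Figure D2:**
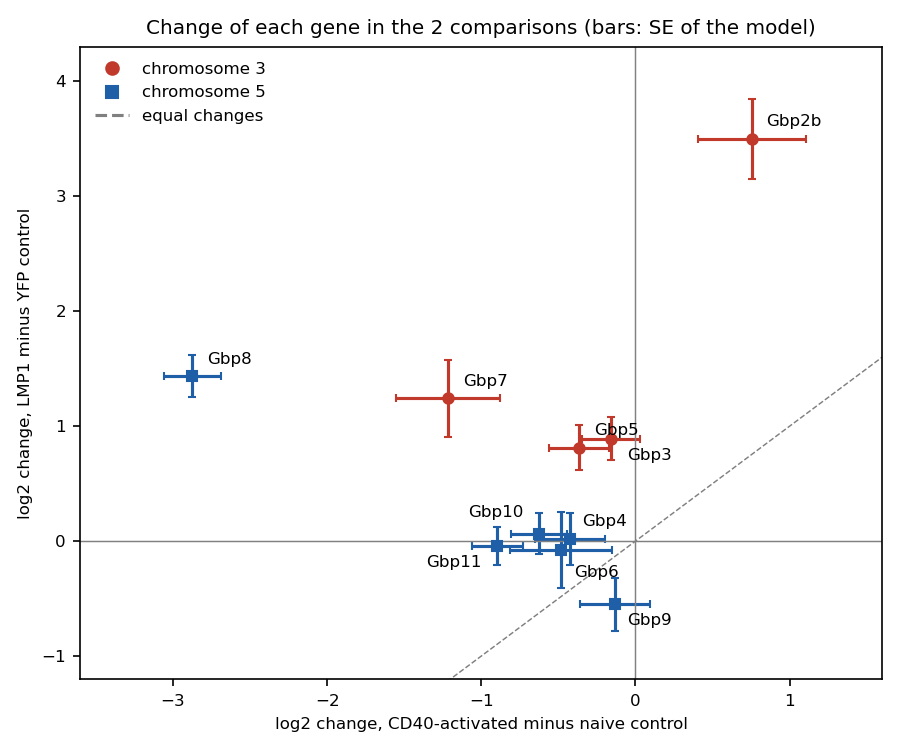
Log2 change of each gene in LMP1 cells relative to YFP control (vertical) against its log2 change in CD40-activated cells relative to naive control (horizontal), with standard errors of the model as bars and a dashed line where the changes would be equal. Circles are chromosome 3 genes and squares chromosome 5 genes. Gbp9 lies below the line and the other 9 genes above it, with Gbp8 farthest from it, and the difference passed the test for Gbp2b, Gbp3, Gbp5, Gbp7 and Gbp8.

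The difference between the LMP1 change and the CD40 change was tested directly, as the change in LMP1 cells over YFP control minus that in CD40-activated cells over naive control. These changes share no arrays. For 5 members the LMP1 change was the higher and for 0 the lower (7 and 0 at an unadjusted p under 0.05 in limma), where 4.2% of all genes were called higher and 4.12% lower. Gbp8, with changes of 1.44 and -2.88, differed by 4.31 ± 0.26 log2 (limma, adjusted p = 2.76e-05). Gbp2b differed by 2.75 ± 0.49 (adjusted p = 0.00856), Gbp7 by 2.46 ± 0.47 (adjusted p = 0.0120), Gbp5 by 1.18 ± 0.27 (adjusted p = 0.0272) and Gbp3 by 1.05 ± 0.26 (adjusted p = 0.0389).

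Gbp8 alone kept this call in every alternative. The call for Gbp3 was lost in 10 alternatives, that for Gbp5 in 6 and that for Gbp7 in 2, without the first LMP1 array (adjusted p = 0.0596) or the second CD40-activated array (adjusted p = 0.0551). For Gbp2b it was lost only without the second CD40-activated array, at 2.52 (adjusted p = 0.0596). Gbp11 was just short of the threshold at 0.86 ± 0.24 (limma, adjusted p = 0.0543). The differences for Gbp10 (0.69), Gbp4 (0.45), Gbp6 (0.41) and Gbp9 (-0.42) did not pass. Markers went both ways. For 5 of 6 T cell genes and 6 of 8 NK cell genes the LMP1 change was the higher. The medians of this difference were 2.59 and 1.98 log2. The median changes with LMP1 itself were -0.06 and -0.255, against -2.83 and -1.95 in CD40-activated cells relative to naive control. The LMP1 change was also the higher for 4 of 7 dendritic cell genes and 1 of 3 for red cells and platelets. The change with LMP1 was the lower for 3 of 7 B cell genes and 2 of 11 monocyte and macrophage genes, with medians of -1.275 and 0.14. The part of these cells in the members' differences was not tested.

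The activated groups were also compared with each other, which uses the same LMP1 arrays as the first comparison. In LMP1 cells 7 members were higher than in CD40-activated cells and 0 were lower, by limma and also at an unadjusted p under 0.05, where 9.66% of all genes were higher and 5.17% lower. The family's median was 1.41 log2, against 0.00 over all genes. Gbp2b was higher by 4.02 ± 0.35 log2, or 16.2-fold (limma, adjusted p = 8.54e-05), Gbp7 by 3.69 ± 0.33, or 12.9-fold (adjusted p = 1.07e-04), and Gbp5 by 2.19 ± 0.19, or 4.55-fold (adjusted p = 9.21e-05). Gbp4, at 8.91 and 8.69 in LMP1 cells against 7.44 and 7.02 in CD40-activated cells, was higher by 1.57 ± 0.22 (adjusted p = 0.00134). Gbp10 was higher by 1.32 ± 0.18 (limma, adjusted p = 0.00101), Gbp8 by 1.5 ± 0.18 (adjusted p = 5.53e-04) and Gbp3 by 1.04 ± 0.19 (adjusted p = 0.00463). The arrays of the 2 groups did not overlap for these 7 genes, but neither did they for Gbp6 and Gbp9, which did not pass. The share of all genes without overlap was not counted.

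The controls were compared as well, which differ in strain, sex, culture, TAT-Cre, sort and the series of their arrays. In YFP control cells 5 members were higher than in naive control cells, Gbp2b, Gbp7, Gbp4, Gbp5 and Gbp10, and 2 were lower, Gbp8 and Gbp11, where 10.9% of all genes were higher and 7.59% lower. Gbp4 was higher by 1.13 ± 0.22 log2 (limma, adjusted p = 0.00782), Gbp5 by 1.01 ± 0.19 (adjusted p = 0.00633) and Gbp10 by 0.63 ± 0.18 (adjusted p = 0.0376). Gbp2b was higher by 1.28 ± 0.35 (limma, adjusted p = 0.0317) and Gbp7 by 1.23 ± 0.33 (adjusted p = 0.0315). The call was kept in only 6 of 14 alternatives for Gbp2b and in 8 of 14 for Gbp7. Gbp2b was higher by 0.65 without the first naive control array, and Gbp7 by 0.79 without the second, with adjusted p-values of 0.131 and 0.184.

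Gbp8 was 7.01-fold lower in YFP control cells than in naive control cells, a change of -2.81 ± 0.18 log2 (limma, adjusted p = 2.92e-05). All 6 T cell genes and 7 of 8 NK cell genes were lower there too. Gbp11, at 3.79 and 3.90 in YFP control cells against 4.58 and 4.50 in naive control cells, was lower there too, at -0.70 ± 0.17 log2 (limma, adjusted p = 0.0179). For Gbp4 and Gbp10 the LMP1 and YFP control arrays overlapped. Gbp4 was 1.57 log2 higher in LMP1 than in CD40-activated cells and 1.13 higher in the YFP control relative to the naive one, while CD40-activated cells were at -0.43 relative to naive control. For Gbp10 these values were 1.32, 0.63 and -0.63, and its difference between the controls passed in 6 of 14 alternatives. Strain, sex, culture, recombinase, sort and the series of the arrays cannot be told apart in this design.

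**Figure D3:**
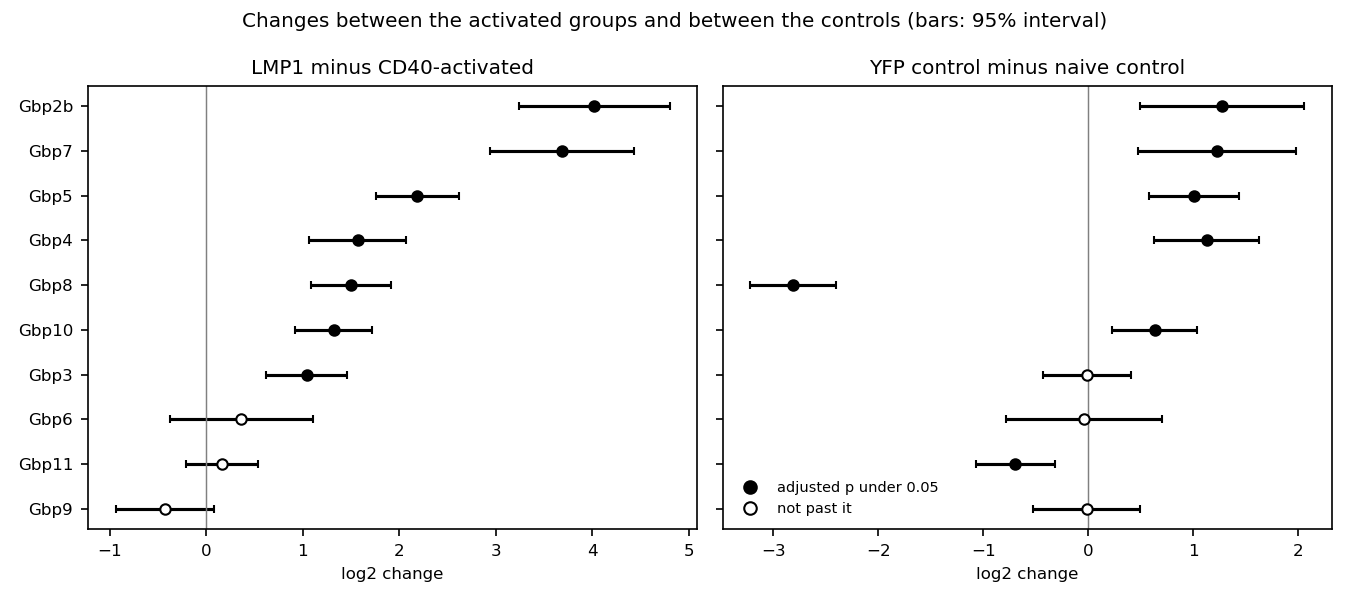
Log2 change of each member between LMP1 and CD40-activated cells (left) and between YFP control and naive control cells (right), with 95% intervals of the model and filled points for an adjusted p under 0.05. The left panel has 7 filled points, all above 0, and the right panel 5 above and 2 below 0, with Gbp8 farthest to the left at -2.81.

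The members fell into different patterns over the 8 arrays. With each gene centred on its own mean, Gbp4 and Gbp10 were the closest pair, with a root mean square difference of 0.31 log2 units, and Gbp5 and Gbp4 followed with 0.36. The most distant pair was Gbp2b and Gbp8, at 2.24. The 3 members with the widest range of group means were then set beside every other gene by the same measure over the 8 arrays. Gbp2b was most like Tnfrsf8, which encodes the receptor CD30 (0.41), Serpinb9, an inhibitor of granzyme B (0.42), and Tnfsf9, the ligand of the costimulatory receptor 4-1BB (0.48). Tnfrsf8 had 9.21 and 9.18 in LMP1 cells, against 5.43 and 5.84 in YFP control cells. It had 5.52 and 5.59 in CD40-activated cells, against 4.94 and 5.30 in naive control cells.

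Gbp7 was most like Stat4 (0.42), which encodes a transcription factor of interleukin 12 signalling, Gm12250 (0.50) and Igtp (0.53). Igtp encodes an interferon-inducible GTPase of another family. It had 9.75 and 9.69 in LMP1 cells, against 8.99 and 9.22 in YFP control cells, and 6.52 and 6.28 in CD40-activated cells, against 6.66 and 6.98 in naive control cells. Gbp8 was most like Dusp1 (0.31), a phosphatase gene of the immediate-early response, Emb (0.42), which encodes embigin, and Ppp1r15a (0.43), a gene of the stress response. Dusp1 had 7.67 and 7.54 in LMP1 cells, against 6.60 and 6.23 in YFP control cells, and 6.64 and 6.30 in CD40-activated cells, against 9.41 and 8.88 in naive control cells.

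The pathway that induces the family was read from lists of its ligands, receptors, factors, inhibitors and targets. The lists were chosen with earlier results of these data known, and some genes stand in several of them. The shares over all genes to set beside each count are 14.9% up and 8.31% down with LMP1. In CD40-activated cells they are 11% up and 6.65% down. Where a count below is 0 in limma, the count at an unadjusted p under 0.05 was 0 as well, except for 1 ligand up with LMP1, 1 ligand down in CD40-activated cells, and 1 inhibitor and 1 other GTPase up in CD40-activated cells. Ifng, the gene of interferon gamma itself, had 5.48 and 5.46 in LMP1 cells, against 5.12 and 5.57 in YFP control cells, with overlap. It had 5.16 and 4.95 in CD40-activated cells, against 5.47 and 5.97 in naive control cells, a change of -0.67 that did not pass (limma, adjusted p = 0.0661). Of 10 measured interferon ligands and inducers, 0 rose and 2 fell with LMP1, Ifna4 by 1.46 and Il18 by 1.38 log2, and 0 changed in CD40-activated cells.

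Among 7 receptor chains and kinases, 0 rose and 3 fell with LMP1. These were the kinase gene Jak2 (-0.88) and the type I interferon receptor genes Ifnar1 (-0.84) and Ifnar2 (-0.80). The interferon gamma receptor chains did not pass, with -0.44 for Ifngr1 and 0.39 for Ifngr2. With quantile normalization of the LMP1 and YFP control arrays on their own, 6 of the 7 fell, which includes at least 1 of these chains. Without the second YFP control array 5 fell, and without the second LMP1 array 0 did. None of the 7 passed in CD40-activated cells, where quantile normalization within the set gave 1 down.

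Of 11 measured transcription factors of the interferon response, 0 rose and 4 fell with LMP1, with 7 down without the second YFP control array and 2 up without the first. Irf1, the factor that acts on the response element core, had 9.32 and 9.28 in LMP1 cells, against 9.55 and 8.58 in YFP control cells, and did not pass at 0.24 (limma, adjusted p = 0.593). Its YFP control arrays were far apart. In CD40-activated cells it had 7.77 and 7.83, against 8.84 and 8.81 in naive control cells, and fell by 1.03 (limma, adjusted p = 0.0259). Irf9, a factor of type I interferon signalling, changed by -0.41 with LMP1 and by -0.82 in CD40-activated cells, neither past the test.

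Ciita, the transactivator of MHC class II genes and itself a target of interferon gamma, fell by 2.70 log2 with LMP1. Irf7, the main factor of late type I interferon induction, fell by 1.86, Irf2 by 1.25 and Irf8, a factor of B and myeloid cells, by 0.83. In CD40-activated cells 2 of the 11 factors rose, among them Irf8 by 0.62, and 3 fell, Irf7 by 2.04, Irf2 by 1.35 and Irf1.

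Inhibitors of the pathway went both ways. With LMP1, 2 of 10 rose and 2 fell. Socs1, the feedback inhibitor of JAK kinases, had 7.69 and 7.75 in LMP1 cells, against 7.02 and 6.19 in YFP control cells, and rose by 1.12 (limma, adjusted p = 0.00800). Ptpn2, a phosphatase gene, rose by 0.65, while Usp18 and Pias1 fell by 0.91 and 0.88. In CD40-activated cells 0 rose and 2 fell, Isg15 by 1.5 and Usp18 by 0.75, and Socs1 did not pass at -0.26.

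Targets were listed by the type of interferon best known to induce them. Of 18 measured targets of interferon gamma outside the family, 11 rose and 1 fell with LMP1, with a median of 0.66 log2. The chemokine genes Cxcl9 and Cxcl10 rose by 3.34 and 3.26, and Ido1, which encodes a tryptophan-degrading enzyme, by 2.74, while Ciita was the one that fell. Of 21 measured targets of type I interferon, 1 rose and 14 fell, with a median of -0.99. Oas2, a sensor of double-stranded RNA, fell by 2.49, and Rtp4, Ddx58 and Xaf1 fell by 2.35, 2.16 and 1.95. Over the 15 alternatives, 5 to 12 interferon gamma targets rose and 1 fell, with 5 up without either LMP1 array and 6 up with only the 2 groups compared. Of the type I targets 0 or 1 rose and 9 to 15 fell, with 9 down without the second LMP1 array.

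In CD40-activated cells, 2 of the 18 interferon gamma targets rose and 2 fell, with a median of -0.08 that turned to 0.03, with 2 up and 0 down, when array medians were subtracted. Nlrc5, the transactivator of MHC class I genes, rose by 1.00 and Cd274, the gene of PD-L1, by 0.97, while Irf1 was among those that fell. Of the 21 type I targets 0 rose and 15 fell, with a median of -0.91, and 9 fell without either CD40-activated array. All 6 T cell markers and 6 of 8 NK cell markers fell in this same comparison. Smaller shares of the myeloid and red cell markers fell, and a few markers rose, as counted beside Gbp8. The part of these cells in the list values was not tested. Rsad2, the gene of the antiviral protein viperin, fell by 3.06, and Cmpk2 by 2.13. The naive control arrays were 1.35 log2 units apart for Rsad2.

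When the difference of the LMP1 and CD40 changes was tested, 8 of the 18 interferon gamma targets were higher and 1 lower, with a median of 1.00 and 3 to 12 higher over 14 alternatives (3 without either LMP1 array), and 3 of the 21 type I targets were higher and 3 lower, with a median of 0.04 and 0 to 4 higher and 0 to 5 lower over the alternatives. Between LMP1 and CD40-activated cells, 12 of 18 interferon gamma targets were higher and 1 lower, with 10 to 13 higher over 14 alternatives. Of 21 type I targets 4 were higher and 2 lower, with 2 to 6 and 0 to 5 over these alternatives.

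**Figure D4:**
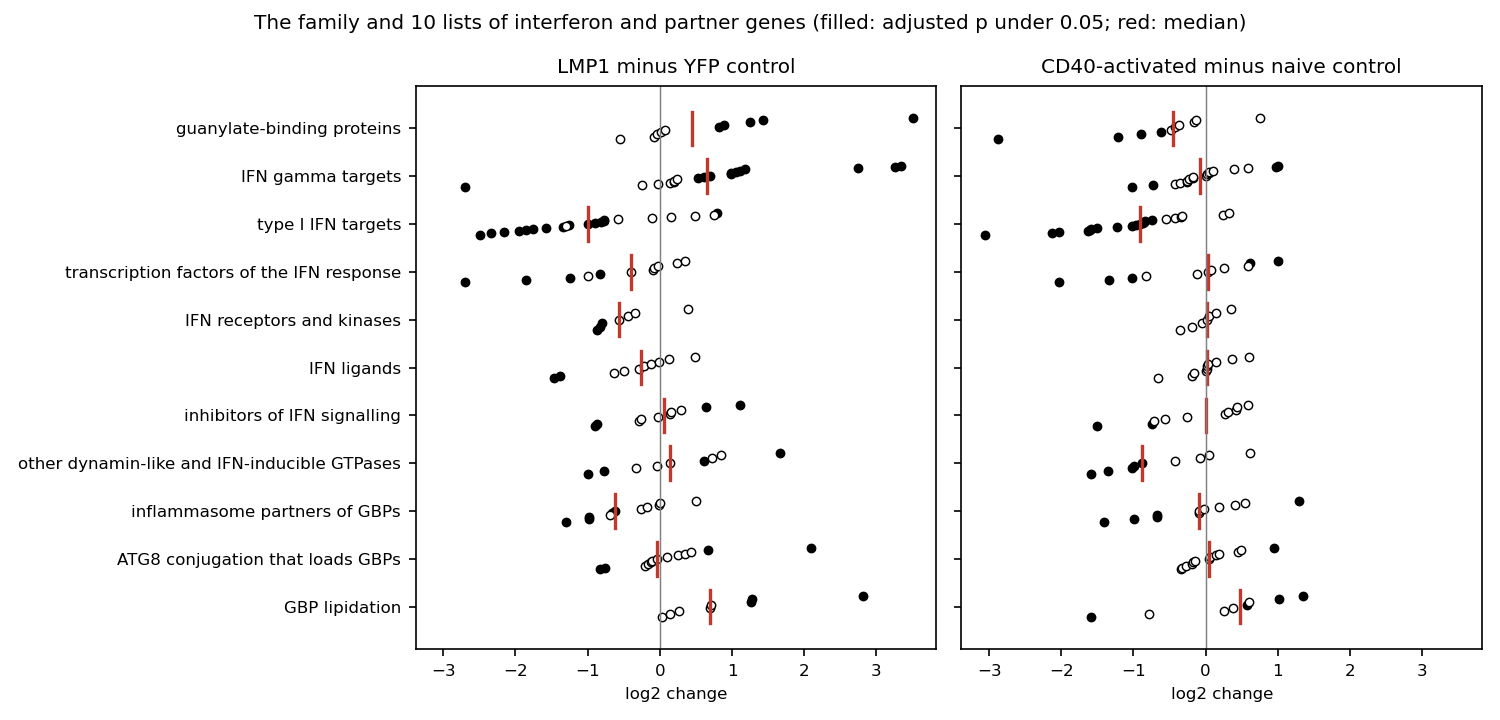
Log2 change of every measured gene of the family and of 10 pathway lists, in LMP1 cells relative to YFP control (left) and in CD40-activated cells relative to naive control (right). Filled points have an adjusted p under 0.05, open points do not, and a red line marks each list's median. The medians with LMP1 are 0.44 for the family, 0.66 for interferon gamma targets and -0.99 for type I interferon targets.

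Other dynamin-like and interferon-inducible GTPases, the relatives of the family, were measured for 9 genes. With LMP1, 2 rose and 2 fell. Iigp1, an immunity-related GTPase, had 6.81 and 7.06 in LMP1 cells, against 5.15 and 5.38 in YFP control cells, and rose by 1.67, and Igtp rose by 0.62. The type I interferon targets Mx1 and Mx2 fell by 0.99 and 0.78. In CD40-activated cells 0 rose and 5 fell, Mx2 by 1.59, Iigp1 by 1.36 and Mx1 by 1.03 among them, with a median of -0.89.

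The list of enzymes that add or trim lipid anchors of proteins held 8 genes, and it includes enzymes that serve Rab proteins. Their action on the members was not tested. With LMP1, 3 rose and 0 fell: Rabggtb, a subunit of the geranylgeranyl transferase of Rab proteins, by 2.82, Rce1, the protease that trims the prenylated end, by 1.28, and Fntb, the beta subunit of farnesyl transferase, by 1.26. The YFP control values of Rabggtb were 5.96 and 4.25, far apart. In CD40-activated cells 3 rose, among them Pggt1b, a subunit of the other geranylgeranyl transferase, by 1.35 and Zmpste24 by 1.02, and Rabggtb fell by 1.59.

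Of 13 genes of ATG8 conjugation, 2 rose and 2 fell with LMP1, where 14.9% of all genes rose and 8.31% fell. Gabarapl1 rose by 2.10 and Atg3 by 0.67, while Map1lc3b and Gabarap fell by 0.83 and 0.76. In CD40-activated cells Gabarap rose by 0.95, the only one of the 13 to pass. Of 11 inflammasome partners, 0 rose and 5 fell with LMP1, among them Il1b by 1.30, Nlrc4 by 0.99, Pycard, the adaptor ASC, by 0.98 and Casp8 by 0.66. This count did not hold: 0 fell with only the 2 groups compared and without the first LMP1 array, 1 without the second, and 3 with array medians subtracted or without any 1 of the naive control and CD40-activated arrays. In CD40-activated cells 1 rose, Casp4 by 1.30, and 4 fell, among them Il1b by 1.42 and Gsdmd, the pore-forming effector, by 1.00. Without the first naive control array or either CD40-activated array, 0 of these 11 passed in CD40-activated cells, and 2 fell with array medians subtracted or without the second naive control array or either LMP1 array. Of 11 monocyte and macrophage markers, 0 rose and 2 fell with LMP1 and 1 rose and 4 fell in CD40-activated cells, and their part in the inflammasome values was not tested.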

How the data were processed

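RNA of 8 samples was measured on Affymetrix whole-transcript arrays. The authors deposited log2 values for each probe set, for which the submitters' processing notes name RMA and the oligo package, with versions not given in the sources used here. Of 25349 probe sets, 22225 had 1 gene symbol in the platform's table, 616 several and 2508 none. For 640 genes with several probe sets the brightest was used, and 0 value columns were left unused. The labels call the replicates biological, without saying which animals they came from.

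One limma model (version 3.58.1, R 4.3.3, functions lmFit and eBayes) held the 4 groups and 8 arrays, with residual degrees of freedom of 4 and prior ones of 5.749. Two-sided p-values were adjusted over 21515 genes by Benjamini-Hochberg, with 0.05 as the threshold. Errors of changes are standard errors of the model. Detection calls were not used, and 2 arrays per group limit the precision of every value.

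The members and lists were chosen with earlier results of these data known. Named genes were every member, per pathway list up to 4 with the largest change past the threshold with LMP1 and up to 3 in CD40-activated cells, a fixed few interferon pathway genes always, and the 3 genes most like each of the 3 members with the widest range. Motifs were searched on both strands in windows of 250 bases before and 50 after a start with Python 3.11.15. Alternatives were trend and robust eBayes, only the groups compared, dim genes left out, array medians subtracted, quantile normalization within each set, the mean of probe sets, a replicate block, and each array left out.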

Additional observations from a re-analysis of the deposited data

Results flagged for a closer look

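The change with LMP1 and the change in CD40-activated cells differed by a test of the difference itself for 5 members. The log2 difference, LMP1 change minus CD40 change, was 4.31 for Gbp8, 2.745 for Gbp2b, 2.46 for Gbp7, 1.18 for Gbp5 and 1.05 for Gbp3. The 2 changes come from mice of different strain and sex, from cells with different culture and sorting, and from arrays of different series, and these cannot be told apart from the stimuli.

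A probe set whose annotation names 2 genes, one of them a member of the family, was left out of all comparisons. It had 11.36 and 11.42 in LMP1 cells, against 8.44 and 8.76 in YFP control cells, a difference of 2.79 log2. It had 7.61 and 7.53 in CD40-activated cells, against 6.68 and 6.74 in naive control cells, a difference of 0.86. No gene is named from it and the differences were not tested.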

How the results depend on the processing

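Of 50 member changes (10 genes in 5 comparisons) 28 passed the test. Of these 12 passed under every alternative, 16 were lost under at least 1, and 0 turned round. Of 22 that did not pass, 4 passed under at least 1 alternative. Among 710 alternative values, 24 belonging to 9 changes not past the test had the other sign. With quantile normalization within each set, 3 members changed with LMP1 in place of 5 (2 up, 1 down), and 52.1% of all called genes were up in place of 64.2%. With array medians subtracted, 2 members changed in CD40-activated cells in place of 4, 3 differed between the changes in place of 5, and 74.3% of the genes called in CD40-activated cells were up in place of 62.4%. With only the groups compared, 3 members differed between the controls in place of 7, and all genes called numbered 6360 in place of 3191 between LMP1 and CD40-activated cells and 1537 in place of 3986 between the controls. With 1 array left out, a lone array was assumed to vary like the other groups. Members changed then numbered 3 to 5 with LMP1, 2 to 4 in CD40-activated cells, 1 to 6 for the difference, 6 to 7 between LMP1 and CD40-activated cells and 4 to 5 between the controls. All genes called numbered 2647 to 7090 with LMP1 (4995 with all arrays), 1576 to 5631 in CD40-activated cells (3803), 707 to 4199 for the difference (1790), 1275 to 4735 between LMP1 and CD40-activated cells and 2695 to 5955 between the controls. The cause of these shifts was not tested.

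The labels number the replicates 1 and 2 in each group without saying that a number is shared. The replicate differences of the groups correlated across genes between -0.102 and 0.074, so the numbers were not taken to pair the samples. With the replicate block, 5 members changed with LMP1, 3 in CD40-activated cells, 7 between LMP1 and CD40-activated cells, 4 for the difference and 7 between the controls.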

Other observations

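The genes that flank the 2 clusters were set beside the members, with order taken from RefSeq's gene table for GRCm38.p6. Beyond one end of the chromosome 3 cluster, Kyat3, an aminotransferase gene, rose with LMP1 by 1.57 ± 0.17 log2 (limma, adjusted p = 1.64e-04) and in CD40-activated cells by 0.67 ± 0.17 (adjusted p = 0.0231). Gtf2b next to it, a general transcription factor gene, rose by 0.89 (limma, adjusted p = 0.00510) and 0.68 (adjusted p = 0.0267). Beyond the other end, Pdlim5 fell by 0.56 with LMP1 (limma, adjusted p = 0.0419), and Bmpr1b did not pass at -0.31. Neither passed in CD40-activated cells. Kyat3 and Gtf2b thus passed upward in CD40-activated cells, and none of the chromosome 3 members did. The change of Gbp2b there, 0.76 ± 0.35, was no smaller than theirs, with a larger error. Members and flanking genes were not tested against each other.

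At the chromosome 5 cluster, Abcg3, a transporter gene, fell with LMP1 by 0.97 (limma, adjusted p = 0.00870) and in CD40-activated cells by 1.32 (adjusted p = 0.00253). Zfp951 rose by 0.54 with LMP1 (limma, adjusted p = 0.0366), from levels of 4.08 and 4.14 that lay below the lower quartile of both YFP control arrays. On the other side Lrrc8b, a subunit gene of volume-regulated anion channels, rose by 0.85 with LMP1 (limma, adjusted p = 0.0452) and by 1.10 in CD40-activated cells (adjusted p = 0.0190). Lrrc8c did not pass in either comparison. These genes were chosen for their position and not for their values.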
